A study of Mus musculus with 6 samples.

Results

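The 39 genes described here encode proteins of the cell cycle, and they were chosen by symbol from their known roles. They comprise the G1 cyclins and their kinases (8 genes), inhibitors of cyclin-dependent kinases (CDKs, 3 genes), the S-phase transcription factor E2F1 with the licensing helicase and its inhibitor (8 genes), DNA synthesis and nucleotide supply (5 genes), cyclins, kinases and regulators of G2 and mitosis (9 genes) and proteins of the mitotic spindle, its checkpoint and the chromosomes (6 genes). All 39 are among the 54446 genes of the count tables. RNA was sequenced from whole liver of 3 wild-type (WT) and 3 *Fmo5*-/- mice, 1 library per mouse, and the study asked how loss of the flavin-containing monooxygenase FMO5 alters hepatic gene expression. All were males of 32 weeks of age on chow. WT mice were C57BL/6J, and the *Fmo5*-/- line, which lacks FMO5, was generated on that background. Both genotypes were bred at one site and kept in adjacent cages, and no shared litters, batches or replicate numbers are given. Mice are numbered 1 to 3 within a genotype only to name them.

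Between 44886286 and 52338675 reads were counted on genes per library. Unmapped reads were 9.72% to 10.15% in WT and 9.10% to 9.20% in *Fmo5*-/- libraries. Reads that mapped to several places were 11.85% to 13.10% in WT and 10.42% to 11.49% in *Fmo5*-/- libraries. These shares did not overlap between genotypes, and their part in the results was not tested. The deleted gene matched the labels in every library, with 39808, 37405 and 30240 normalized counts of *Fmo5* in WT mice and 1071, 1102 and 1194 in *Fmo5*-/- mice. The 8 hepatocyte markers (among them *Alb* and *Apoa1*) summed to between 5735040 and 7211100 normalized counts in WT mice and to between 5739250 and 7055400 in *Fmo5*-/- mice. A normalized count is a count divided by the library's effective size (total times TMM factor) and brought to the mean size of the 6 libraries. *Fmo5*-/- mouse 3 stood apart from the other *Fmo5*-/- mice in the genes of G2 and mitosis, and results are therefore given with and without it.

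The cell cycle is driven by cyclins, which activate CDKs in turn. D-type cyclins with CDK4 and CDK6 and then E-type cyclins with CDK2 release E2F transcription factors from the retinoblastoma protein and bring the cell into S phase. Cyclins A2, B1 and B2 with CDK1 carry it through G2 into mitosis. Hepatocytes of adult liver are mostly quiescent, yet they re-enter the cycle after loss of tissue, and resident macrophages and lymphocytes of the liver can divide too. Genes of G2 and mitosis are repressed in quiescent cells by the DREAM complex and activated in dividing cells by B-MYB and FOXM1, and many of their promoters carry a cell cycle genes homology region (CHR) near a CCAAT box, which binds NF-Y.

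The summed level of the genes of G2 and mitosis was higher in *Fmo5*-/- liver, although no single one of them passed the main test. Summed over the 15 genes of the last 2 groups (9 of G2 and mitosis and 6 of the spindle and chromosomes), WT mice had 694, 715 and 702 normalized counts. *Fmo5*-/- mice 1, 2 and 3 had 1317, 1698 and 834. The genotypes did not overlap, and mean levels were 704 ± 10.9 in WT and 1283 ± 433 in *Fmo5*-/- mice (SD, n = 3), a ratio of 1.82. The ratio to the WT mean was 1.87 for mouse 1 and 2.41 for mouse 2, but 1.18 for mouse 3. For the other 24 genes the sums were 14517, 13413 and 14493 in WT mice and 15602, 16113 and 13829 in *Fmo5*-/- mice, which overlapped, with a ratio of 1.07. The difference between these 2 sets of genes was not tested. Summed markers of Kupffer cells and macrophages and of T and NK cells were also higher in every *Fmo5*-/- mouse. Their ratios were 2.14 and 2.89. For T and NK cells the sum was 1270 in mouse 2, against 531 in mouse 1 and 360.3 in mouse 3. Sums of neutrophil and of B and plasma cell markers were higher too, with ratios of 2.48 and 1.28. The part of these cells in the result was not tested.

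No single member passed the test across all genes. Of the 39, 38 had enough reads to be tested, and 0 of these had an adjusted p under 0.05 in edgeR's quasi-likelihood test, against 1.37% of all 16734 genes tested (0.675% higher and 0.693% lower). The smallest adjusted p was 0.0617, for *Aurkb*. Of the 38 genes, 37 reached the limit on low counts in all WT libraries, and *Ccnb1* was the exception. At an unadjusted p under 0.05, edgeR gave 14 of the 38, all higher in *Fmo5*-/- mice, against 11.6% of all genes in that direction and 10.2% in the other. Levels of 12 members lay above, and of 1 member below, those of every WT mouse in all 3 *Fmo5*-/- mice, against 13.9% and 13.5% of all genes. The median log2 fold change (*Fmo5*-/- over WT) was 0.35 over the members and 0.0058 over all genes tested, and it was above 0 in 29 of 38 members and in 50.8% of all genes. The members' median was 0.18 without *Fmo5*-/- mouse 2, 0.24 without mouse 1 and 0.51 without mouse 3, 0.17 with counts of 1 strand and 0.10 over the 11 members with a mean count of 500 or more. The DESeq2 Wald test called 7 members, all higher in *Fmo5*-/- mice (*Mki67*, *Aurkb*, *Cdc20*, *Top2a*, *Ccna2*, *Ccnb2* and *Mcm6*), against 4.75% of all genes in that direction. With no filter on low counts edgeR called 12 members, all higher, against 3.2% of all genes.

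**Figure D1:**
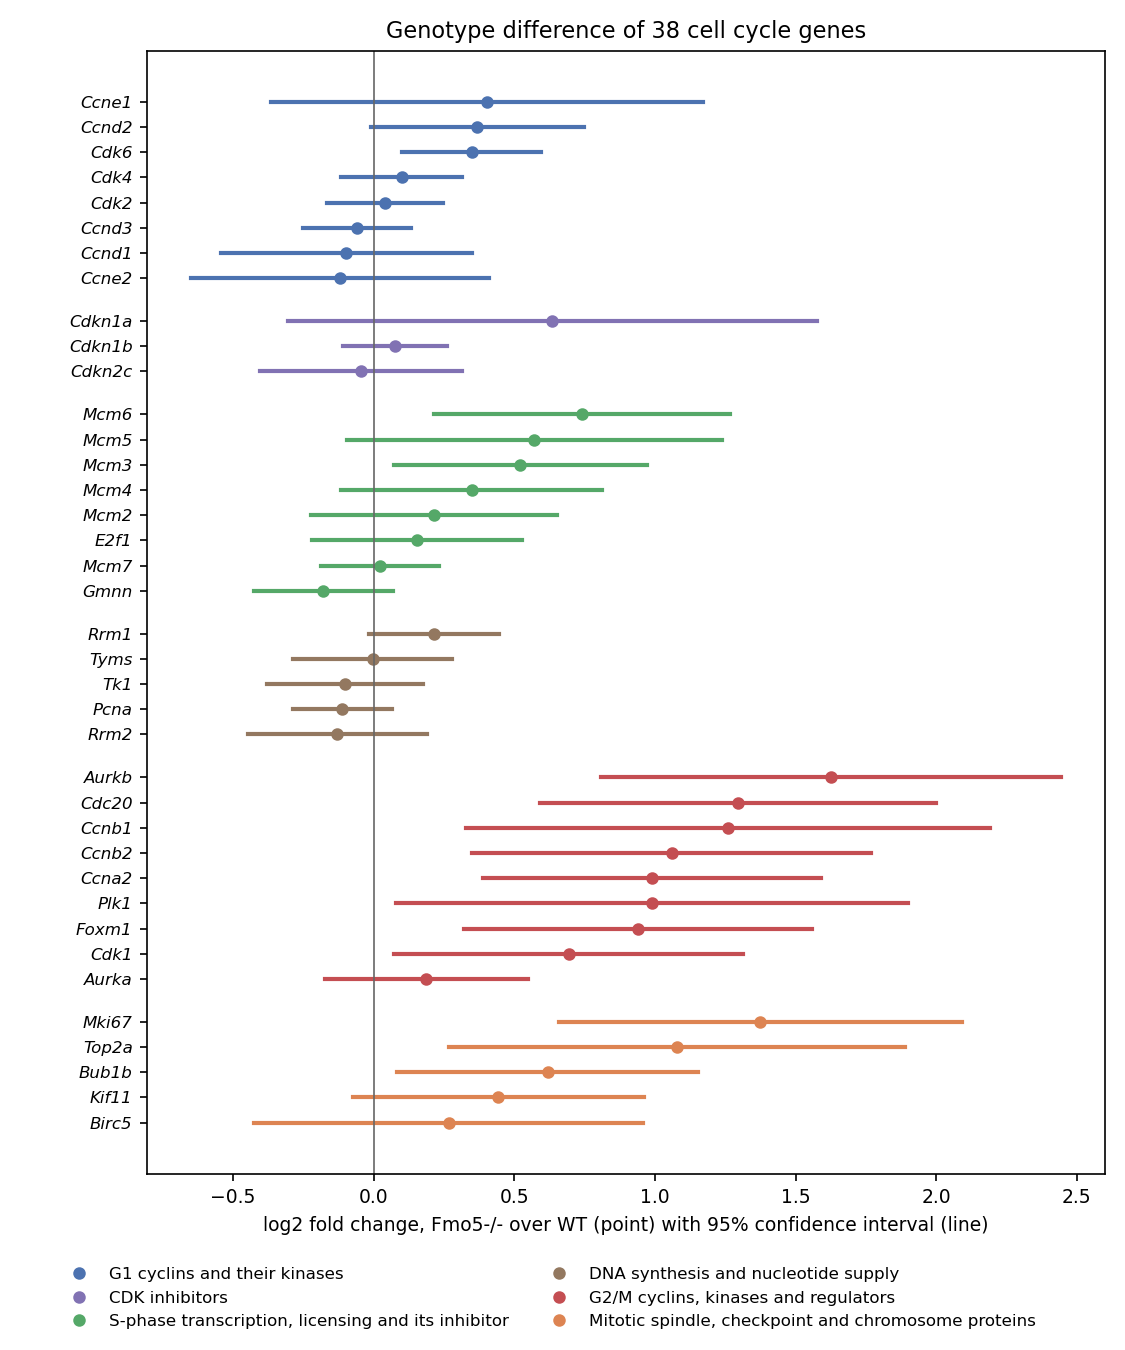
Log2 fold change (*Fmo5*-/- over WT, horizontal axis) of the 38 members tested, by role, from edgeR. Points are estimates and lines their 95% confidence intervals, and the highest values are those of *Aurkb* (1.63), *Mki67* (1.37) and *Cdc20* (1.30), in the groups of G2 and mitosis.

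Promoters of 31 of the 39 genes, 12 of them among the 15 of G2 and mitosis, matched a RefSeq entry (GRCm38.p6, from 250 bases before to 50 after the start site). *Ccnd1*, *Ccnd2*, *Ccne2*, *Mcm4*, *Gmnn*, *Ccna2*, *Foxm1* and *Aurkb* did not match. Of those 12, 9 hold the CHR letters TTTGAA on either strand, compared with 1 of the other 19 members (*Mcm2*) and 20.2% of all 27025 genes with a promoter. A gene with several promoters was counted if any of them matched. CCAAT occurs in 11 of the 12, in 12 of the 19 and in 41.1% of all. GCGGGAA, letters of 1 form of an E2F site, occurs in 0 of the 12, in 5 of the 19 (*Cdk2*, *Cdkn2c*, *Mcm3*, *Mcm7* and *Rrm1*) and in 5.29% of all. Other forms of the site were not searched, so promoters without these letters, that of *Mcm6* among them, may still hold an E2F site. CHR and CCAAT letters occur together in 9 of the 12, in 1 of the 19 and in 7.97% of all. These are matches of letters and not measured binding. The promoters below are printed 5′ to 3′ on the gene's strand, with matches in capitals (TTTGAA for the CHR, CCAAT or, for the opposite strand, ATTGG), and no matches within them overlap. *Mki67* (chr7:135716330-135716629, minus strand) and *Cdc20* (chr4:118437294-118437593, minus strand) are shown as genes with large differences, *Ccnb2* (chr9:70421505-70421804, minus strand) and *Cdk1* (chr10:69352863-69353162, minus strand) as a cyclin and its kinase, and *Mcm6* (chr1:128359656-128359955, minus strand) as the S-phase gene that DESeq2 called, which has no CHR letters.
Mki67: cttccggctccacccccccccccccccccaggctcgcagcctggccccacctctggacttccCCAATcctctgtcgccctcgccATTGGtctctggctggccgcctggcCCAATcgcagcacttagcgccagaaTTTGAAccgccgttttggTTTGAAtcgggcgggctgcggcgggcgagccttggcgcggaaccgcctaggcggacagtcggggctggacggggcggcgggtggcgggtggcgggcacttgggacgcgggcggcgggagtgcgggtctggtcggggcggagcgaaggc
Cdc20: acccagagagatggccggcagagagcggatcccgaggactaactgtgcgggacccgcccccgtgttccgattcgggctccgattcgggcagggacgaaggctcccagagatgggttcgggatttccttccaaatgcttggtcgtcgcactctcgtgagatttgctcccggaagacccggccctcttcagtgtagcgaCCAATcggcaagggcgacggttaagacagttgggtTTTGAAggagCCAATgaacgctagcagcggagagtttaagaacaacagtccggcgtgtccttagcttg
Ccnb2: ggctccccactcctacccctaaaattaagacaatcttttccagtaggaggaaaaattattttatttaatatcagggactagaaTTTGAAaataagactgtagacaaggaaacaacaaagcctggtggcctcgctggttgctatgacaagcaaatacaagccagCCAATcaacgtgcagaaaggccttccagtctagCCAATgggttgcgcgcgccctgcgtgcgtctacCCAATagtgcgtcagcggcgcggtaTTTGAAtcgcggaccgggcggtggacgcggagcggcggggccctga
Cdk1: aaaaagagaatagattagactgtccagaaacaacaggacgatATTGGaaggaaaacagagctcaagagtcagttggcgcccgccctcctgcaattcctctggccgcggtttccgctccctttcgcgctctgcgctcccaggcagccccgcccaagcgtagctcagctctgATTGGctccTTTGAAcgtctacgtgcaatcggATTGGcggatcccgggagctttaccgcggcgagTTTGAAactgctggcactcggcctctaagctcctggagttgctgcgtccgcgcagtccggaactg
Mcm6: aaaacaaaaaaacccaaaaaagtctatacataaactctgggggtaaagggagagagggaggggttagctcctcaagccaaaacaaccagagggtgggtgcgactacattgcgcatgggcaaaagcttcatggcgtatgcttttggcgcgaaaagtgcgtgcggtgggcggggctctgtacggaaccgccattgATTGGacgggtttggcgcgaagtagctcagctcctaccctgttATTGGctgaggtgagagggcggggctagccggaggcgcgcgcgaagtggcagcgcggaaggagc
Counted from the start site to the first base of a match, the CHR letters of *Mki67* lie at -116 and -98, with CCAAT letters further upstream. In *Cdc20* a CHR match at -18 lies between CCAAT matches at -53 and -8. *Cdk1* has CHR matches at -71 and -15 and CCAAT letters on the opposite strand at -208, -80 and -48.

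Cyclins of G2 and mitosis were scarce in liver, and none of the 3 passed the test. *Ccna2*, encoding cyclin A2, which acts in S phase and G2, had 40.2, 42.4 and 35.8 normalized counts in WT mice and 80.1, 101 and 54.0 in *Fmo5*-/- mice 1, 2 and 3. All *Fmo5*-/- mice lay above all WT mice, and the log2 fold change was 0.99 ± 0.27 (SE; edgeR adjusted p = 0.0845). Exons of *Ccna2* overlap the opposite-strand gene *Exosc9* over 12.5% of their length. Reads of 1 strand alone, which add reads that may be of *Exosc9*, gave -0.16. *Ccnb1*, encoding cyclin B1, the partner of CDK1 at entry into mitosis, had 11.6, 11.2 and 10.2 in WT and 26.1, 39.5 and 13.7 in *Fmo5*-/- mice. The groups did not overlap, with a log2 fold change of 1.26 ± 0.41 (edgeR adjusted p = 0.128). *Ccnb2*, encoding cyclin B2, had 34.9, 44.6 and 21.5 in WT and 77.3, 82.6 and 50.1 in *Fmo5*-/- mice, again without overlap (1.06 ± 0.31, edgeR adjusted p = 0.102).

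*Aurkb*, encoding aurora kinase B of the chromosomal passenger complex, had 15.9, 12.3 and 14.3 normalized counts in WT mice and 50.3, 56.9 and 24.5 in *Fmo5*-/- mice. Even the lowest *Fmo5*-/- mouse exceeded the highest WT mouse, and the log2 fold change of 1.63 ± 0.36 was the largest of the members tested (edgeR adjusted p = 0.0617). *Cdk1*, the kinase that starts mitosis, had 48.7, 55.8 and 53.2 in WT and 73.6, 120.2 and 60.9 in *Fmo5*-/- mice. Its groups did not overlap, but the difference was smaller (0.69 ± 0.28, edgeR adjusted p = 0.187). *Plk1*, encoding polo-like kinase 1, had 22.2, 13.4 and 27.6 in WT and 47.5, 56.9 and 21.6 in *Fmo5*-/- mice. Mouse 3 lay within the WT range, and the log2 fold change was 0.99 ± 0.40 (edgeR adjusted p = 0.195). *Aurka*, encoding aurora kinase A of the centrosome, had 123, 138 and 129 in WT and 145, 166 and 133 in *Fmo5*-/- mice. Its values overlapped, with a log2 fold change of 0.19 and a 95% confidence interval of -0.17 to 0.55.

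*Cdc20* and *Foxm1* complete the group. *Cdc20*, which activates the anaphase-promoting complex, had 44.5, 33.5 and 42.9 normalized counts in WT mice and 125, 116 and 56.9 in *Fmo5*-/- mice. The groups were apart, with a log2 fold change of 1.30 ± 0.31 (edgeR adjusted p = 0.0710). *Foxm1*, encoding the transcription factor that activates genes of G2 and mitosis, had 24.4, 25.7 and 27.6 in WT and 57.8, 56.9 and 34.4 in *Fmo5*-/- mice. It too did not overlap (0.94 ± 0.27, edgeR adjusted p = 0.0996). Of the 9 genes of this group, 7 were above every WT value in all *Fmo5*-/- mice, against 13.9% of all genes, and all 9 had a log2 fold change above 0, against 50.8%, with a median of 0.99.

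**Figure D2:**
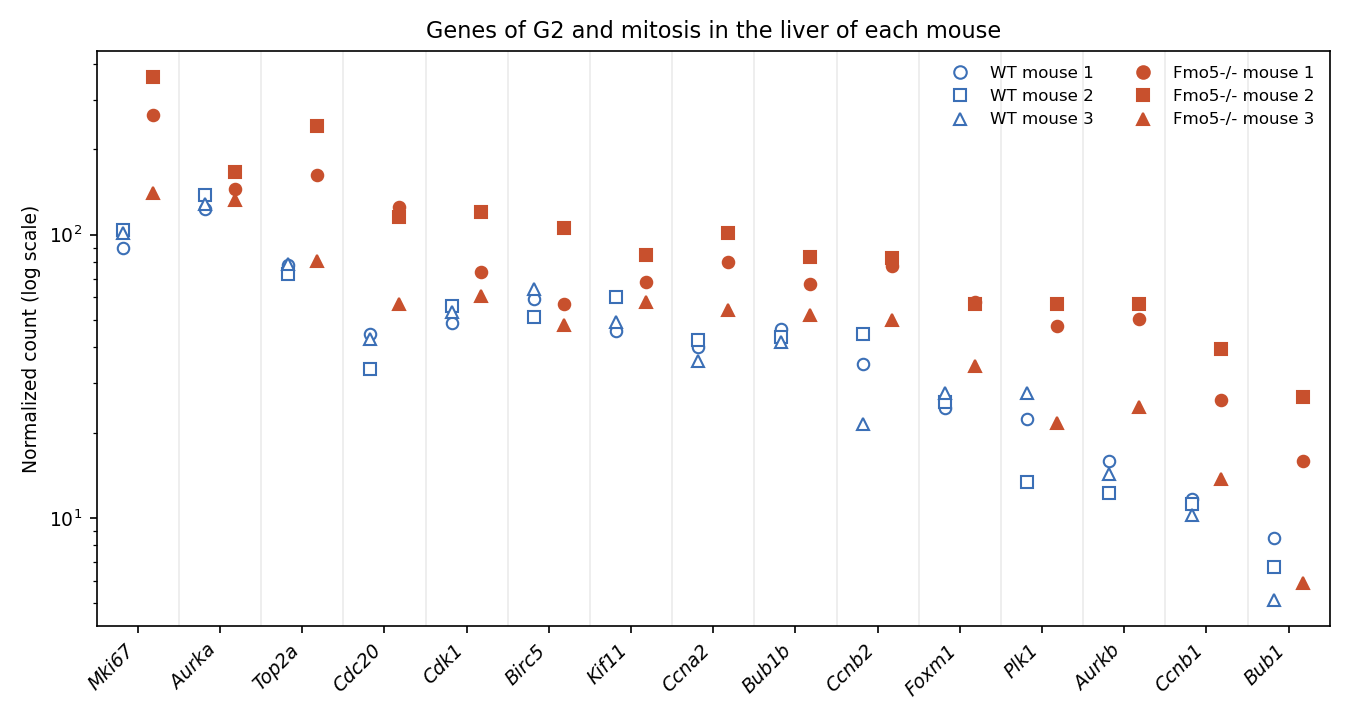
Normalized count (vertical axis, log scale) of the 15 genes of G2 and mitosis in each mouse, with open symbols for WT and filled symbols for *Fmo5*-/- mice, and 1 shape per mouse number. *Fmo5*-/- mouse 3 (triangle) was the lowest of the *Fmo5*-/- mice in 15 of the 15 genes.

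Among the proteins of chromosomes and spindle, the proliferation marker differed most. *Mki67*, encoding Ki-67, which coats mitotic chromosomes, had 90.0, 104 and 101 normalized counts in WT mice and 264, 361 and 140.4 in *Fmo5*-/- mice. Means were 98.3 ± 7.32 in WT and 255 ± 110.4 in *Fmo5*-/- mice (SD, n = 3), and the log2 fold change was 1.37 ± 0.31 (edgeR adjusted p = 0.0697). The WT values were close together and below all *Fmo5*-/- values. *Top2a*, encoding the topoisomerase that untangles replicated DNA, had 78.4, 72.5 and 78.7 in WT and 163, 241 and 80.5 in *Fmo5*-/- mice. The genotypes did not overlap, although mouse 3 was just above the highest WT mouse (1.08 ± 0.35, edgeR adjusted p = 0.134). *Bub1b*, encoding the checkpoint kinase BUBR1, had 46.6, 43.5 and 41.9 in WT and 67.1, 83.5 and 52.0 in *Fmo5*-/- mice, also without overlap (0.62 ± 0.24, edgeR adjusted p = 0.173).

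The other 3 genes of this group overlapped between genotypes. *Kif11*, encoding the kinesin that separates the spindle poles, had 45.5, 60.3 and 49.1 normalized counts in WT and 68.0, 84.4 and 57.9 in *Fmo5*-/- mice (log2 fold change 0.44, edgeR adjusted p = 0.302). *Birc5*, encoding survivin of the passenger complex, had 59.3, 51.3 and 64.4 in WT and 56.8, 106 and 48.1 in *Fmo5*-/- mice. Only mouse 2 was above the WT range, and without it the log2 fold change turned from 0.27 to -0.15, while without mouse 3 it was 0.47. *Bub1*, encoding a checkpoint kinase of the kinetochore, was below the limit for testing, with 8.47, 6.70 and 5.11 in WT and 15.8, 26.6 and 5.89 in *Fmo5*-/- mice.

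In the genes of G2 and mitosis, the order of the *Fmo5*-/- mice was nearly the same from gene to gene. In 13 of these 15 genes, mouse 2 was the highest, mouse 1 was next and mouse 3 was the lowest. Mice 1 and 2 both exceeded every WT mouse in 14 of the 15 genes, with *Birc5* as the exception. Mouse 3 exceeded every WT mouse in 10, lay within the WT range in 4 and lay below it in 1. The other 24 members had this order in 10. Mice 1 and 2 both exceeded every WT mouse in 11 of those 24, and mouse 3 did in 4. These genes share their libraries and are not independent replicates of the order. The median coefficient of variation was 8.55% in WT and 37.2% in *Fmo5*-/- mice for the 15 genes, 6.83% and 16.6% for the other 24, and 11.2% and 11.1% for all genes tested. These sets were not matched for level. Many of the 15 genes had few reads (*Ccnb1* had 11, 10 and 10 raw counts in WT mice), and counting error alone adds spread there. Their small spread in WT is therefore not a measure of how alike the WT mice were. Per length, the same 15 genes were at low levels in WT liver. Their median was 0.198 RPKM (reads per kilobase of exon per unit of library size), against 1.53 RPKM for the other 24, and levels ranged from 0.0318 RPKM for *Bub1* to 11.4 RPKM for *Pcna*.

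The number of members called depended on *Fmo5*-/- mouse 3. This mouse was singled out because it was the lowest *Fmo5*-/- mouse in these same genes, so that leaving it out raises their fold changes and narrows their spread by construction, and the calls made without it are a description. Without it edgeR called 9 members, all higher in *Fmo5*-/- mice, against 3.54% of all genes in that direction. They were *Mki67*, *Aurkb*, *Cdc20*, *Top2a*, *Ccna2*, *Ccnb1*, *Foxm1*, *Cdk6* and *Mcm6*. The log2 fold change of *Mki67* was then 1.66 (edgeR adjusted p = 0.00321) and that of *Cdc20* 1.57 (edgeR adjusted p = 0.00830). Without *Fmo5*-/- mouse 2 the log2 fold change was 1.04 for *Mki67*, 1.17 for *Cdc20* and 1.40 for *Aurkb*, but 0.67 for *Top2a* (1.08 with all mice), 0.36 for *Cdk1* (0.69), 0.29 for *Kif11* (0.44) and 0.097 for *Aurka* (0.19), and 0 members were called, against 0.627% of all genes. None was called either without mouse 1 (0.182% of all genes) or without WT mouse 1, 2 or 3 (0.36%, 0.475% and 0.866% of all genes).

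**Figure D3:**
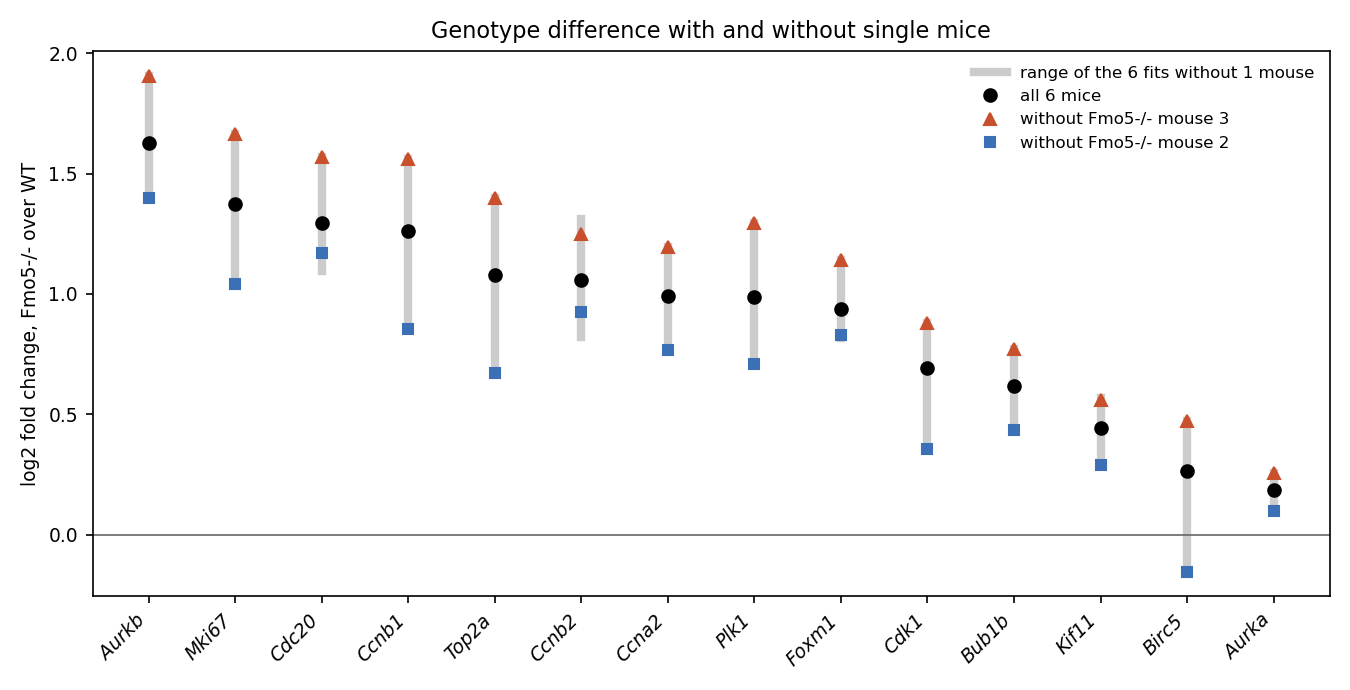
Log2 fold change (*Fmo5*-/- over WT, vertical axis) of the 14 tested genes of G2 and mitosis in edgeR with all 6 mice (black points), without *Fmo5*-/- mouse 3 (triangles) and without *Fmo5*-/- mouse 2 (squares). Grey bars span the 6 fits that each leave out 1 mouse, and only the bar of *Birc5* crosses 0.

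Licensing loads the replicative helicase onto origins in G1. The helicase itself is the MCM2-7 complex, of which 6 members were measured here. *Mcm6* had 157, 181 and 228 normalized counts in WT and 343, 387 and 215 in *Fmo5*-/- mice. Mice 1 and 2 were above and mouse 3 within the WT range (log2 fold change 0.74 ± 0.23, edgeR adjusted p = 0.118). *Mcm3* had 252, 214 and 294 in WT and 367, 453 and 272 in *Fmo5*-/- mice, with the same order (0.52 ± 0.20, edgeR adjusted p = 0.172). *Mcm4* had 192, 185 and 226 in WT and 289, 300.1 and 179 in *Fmo5*-/- mice, and mouse 3 was the lowest of all 6 mice. *Mcm5* had 120, 132 and 137 in WT and 173, 285 and 118 in *Fmo5*-/- mice, with mouse 3 again the lowest of all. *Mcm2* had 227, 234 and 224 in WT and 307, 301 and 186 in *Fmo5*-/- mice. In these 3 genes mice 1 and 2 were above the WT range, and the log2 fold changes were 0.35, 0.57 and 0.21, with edgeR adjusted p from 0.301 to 0.563. Without mouse 2 the log2 fold changes were 0.22, 0.17 and 0.11 for *Mcm4*, *Mcm5* and *Mcm2* and 0.33 for *Mcm3*, and without mouse 1 that of *Mcm2* was 0.092. Without mouse 3 they were 0.55 for *Mcm4* and 0.41 for *Mcm2*. *Mcm7*, the most abundant of the 6 per length, had 770, 703 and 697 in WT and 726, 795 and 684 in *Fmo5*-/- mice, with values that overlapped and a 95% confidence interval of -0.19 to 0.23.

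*E2f1*, encoding a transcription factor of S-phase genes, had 241, 230 and 209 normalized counts in WT and 265, 293 and 199 in *Fmo5*-/- mice (log2 fold change 0.16, or 0.035 without mouse 2, 0.30 without mouse 3 and 0.10 without WT mouse 3, edgeR adjusted p = 0.633 with all mice). Mice 1 and 2 were above and mouse 3 was below the WT range. *Gmnn*, encoding geminin, which blocks a second round of licensing, was the 1 member below WT without overlap. It had 373, 339 and 361 in WT and 301, 325 and 322 in *Fmo5*-/- mice, a difference of -0.18 with a 95% confidence interval of -0.43 to 0.07 (edgeR adjusted p = 0.382). With counts of 1 strand the difference was -0.068.

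Of the 5 genes of DNA synthesis and nucleotide supply, 4 overlapped between the genotypes. *Pcna*, encoding the sliding clamp of DNA polymerase, had 1400, 1287 and 1320 normalized counts in WT and 1226, 1186 and 1299 in *Fmo5*-/- mice. Mouse 3 lay within the WT range, and the log2 fold change was -0.11 with a 95% confidence interval of -0.29 to 0.06, or -0.070 without WT mouse 1. *Rrm1*, encoding the large subunit of ribonucleotide reductase, had 522.1, 463 and 500 in WT and 606, 594 and 522.3 in *Fmo5*-/- mice, which did not overlap by a margin under 1 normalized count (0.21, edgeR adjusted p = 0.261). Its partner *Rrm2* had 209, 269 and 230 in WT and 216, 208 and 222 in *Fmo5*-/- mice, and the values overlapped (-0.13, or -0.21 and -0.024 without WT mice 1 and 2). *Tyms*, encoding thymidylate synthase, had 315, 287 and 301 in WT and 265, 320.3 and 315 in *Fmo5*-/- mice, with a log2 fold change of -0.0032. *Tk1*, encoding thymidine kinase 1, had 1315, 928 and 1246 in WT and 1086, 1071 and 1097 in *Fmo5*-/- mice. All its *Fmo5*-/- values fell inside the WT range. Of the 5 genes, 4 had a log2 fold change below 0, and mouse 2, the highest for mitotic genes, was the highest of the 6 mice for *Tyms* alone.

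Among G1 cyclins and kinases, *Cdk6* was the gene with the smallest p. *Cdk6*, encoding a partner of the D-type cyclins, had 1540, 1495 and 1535 normalized counts in WT and 2225, 1954 and 1638 in *Fmo5*-/- mice. The WT values had a coefficient of variation of 1.60% and lay below all *Fmo5*-/- values (0.35 ± 0.11, edgeR adjusted p = 0.116), and here mouse 1 was the highest. *Cdk4*, the other partner, had 1519, 1273 and 1603 in WT and 1574, 1604 and 1530 in *Fmo5*-/- mice, with overlap. Its exons share 19.7% of their length with *Tspan31* on the opposite strand, and the log2 fold change was 0.10 with both strands and -0.092 with 1 strand. With both strands it was 0.0096 without WT mouse 2 and 0.17 without WT mouse 3. *Cdk2*, the partner of the E-type cyclins, had 922, 764 and 872 in WT and 857, 907 and 866 in *Fmo5*-/- mice, all within the WT range.

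Of the D-type cyclins, *Ccnd2* had 439, 487 and 455 normalized counts in WT and 546, 765 and 472 in *Fmo5*-/- mice. Mice 1 and 2 were above the WT range (0.37, edgeR adjusted p = 0.242), and without mouse 2 the log2 fold change was 0.15. *Ccnd1*, the D-type cyclin with the highest level per length in WT (3.27 RPKM), had 731, 810.1 and 715 in WT and 784, 842 and 481 in *Fmo5*-/- mice. Mouse 3 was far below the other mice, and the log2 fold change was -0.097 with it and 0.11 without it. Exons of *Ccnd1* share 23.4% of their length with *LTO1* on the opposite strand. With counts of 1 strand and all mice the log2 fold change was -0.019. *Ccnd3* had 1264, 1364 and 1204 in WT and 1300.5, 1230.0 and 1145 in *Fmo5*-/- mice, a difference of -0.060 with a 95% confidence interval of -0.25 to 0.13, and between -0.11 and -0.0096 without 1 mouse (without *Fmo5*-/- mouse 1 and WT mouse 2). The E-type cyclins were near the WT level per length of the mitotic genes, with 0.254 RPKM for *Ccne2*. *Ccne1* had 21.2, 21.2 and 27.6 in WT and 41.0, 34.0 and 17.7 in *Fmo5*-/- mice, and *Ccne2* had 43.4, 46.9 and 39.9 in WT and 33.5, 47.7 and 38.3 in *Fmo5*-/- mice. Both overlapped, with edgeR adjusted p of 0.536 and 0.814, and the log2 fold change of *Ccne1* was 0.40 with all mice, 0.15 without mouse 1 and 0.68 without mouse 3. That of *Ccne2* was -0.12 with all mice, -0.011 and -0.27 without *Fmo5*-/- mice 1 and 2, and -0.061 without WT mouse 2.

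CDK inhibitors hold cells in G1, and the values of the 3 among the members overlapped between the genotypes. *Cdkn1a*, encoding p21, a target of p53, had 217, 125 and 302 normalized counts in WT and 350.3, 453 and 198 in *Fmo5*-/- mice. It varied by 41.2% among WT and 38.3% among *Fmo5*-/- mice, and the genotypes differed by 0.64 on the log2 scale (95% confidence interval -0.30 to 1.58), or by 0.35 without *Fmo5*-/- mouse 2 and by 0.36 and 0.96 without WT mice 2 and 3. *Cdkn1b*, encoding p27, had 1525, 1367 and 1554 in WT and 1542, 1514 and 1633 in *Fmo5*-/- mice (0.077, or 0.024 and 0.12 without WT mice 2 and 3 and 0.042 without *Fmo5*-/- mouse 3). *Cdkn2c*, encoding p18, had 203, 208 and 213 in WT and 179, 243 and 182 in *Fmo5*-/- mice (-0.046).

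Other genes of the cell cycle were examined from lists of 158 further genes, of which 151 were tested. Of 44 other mitotic genes, 42 were tested, and edgeR called 1 higher and 0 lower. Over all genes, 0.675% were called higher and 0.693% lower. At an unadjusted p under 0.05, 25 were higher and 2 lower (edgeR), against 11.6% and 10.2% of all genes. In 17 of them all *Fmo5*-/- mice lay above and in 1 below all WT mice, against 13.9% and 13.5% of all genes, and the median log2 fold change was 0.72. Of the 42 genes, 8 were under the limit on low counts in at least 1 WT library, and 3 of these (*Ttk*, *Kif18b* and *Cep55*) in all WT libraries, so that they were tested only through the *Fmo5*-/- libraries, where they were higher. These 8 make up 7 of the 25 genes and 5 of the 17. The 1 called was *Prc1*, which bundles microtubules of the central spindle, with 31.8, 32.4 and 34.8 normalized counts in WT and 68.0, 74.3 and 65.8 in *Fmo5*-/- mice. It rose by a log2 fold change of 1.07 ± 0.21 (edgeR adjusted p = 0.0468), and mouse 3 was near the other *Fmo5*-/- mice. *Racgap1*, which acts with it in cytokinesis, had 23.3, 33.5 and 22.5 in WT and 74.5, 108 and 40.3 in *Fmo5*-/- mice (1.50, edgeR adjusted p = 0.0756). *Ube2c*, the ubiquitin-conjugating enzyme of the anaphase-promoting complex, had 24.4, 37.9 and 24.5 in WT and 62.4, 66.1 and 50.1 in *Fmo5*-/- mice (1.04, edgeR adjusted p = 0.0761). Neither overlapped between genotypes.

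Of 36 other genes of origin licensing and the replication fork, 35 were tested and 0 called, with 6 of the 35 at an unadjusted p under 0.05 in edgeR, all higher, against 11.6% of all genes, and a median log2 fold change of 0.14. Of the 35, 3 were under the limit on low counts in at least 1 WT library, and these make up 3 of the 6. *Cdt1* had 111, 79.2 and 107 normalized counts in WT and 195, 200.1 and 144 in *Fmo5*-/- mice (0.85, edgeR adjusted p = 0.0694). *Cdc6* had 5.30, 3.35 and 9.20 in WT and 29.8, 24.8 and 9.82 in *Fmo5*-/- mice (1.82, edgeR adjusted p = 0.0939), and mouse 3 was just above the highest WT mouse. *Cdc6* was under the limit in all WT libraries and was tested only through the *Fmo5*-/- libraries, where it was higher, so its fold change and p carry that selection. *Lig1*, which joins Okazaki fragments, had 158, 116 and 160 in WT and 204, 206 and 197 in *Fmo5*-/- mice (0.48, edgeR adjusted p = 0.136). These 3 genes did not overlap between genotypes. Of the 35 tested, 7 were higher and 3 (*Orc3*, *Orc4* and *Dut*) lower without overlap, against 13.9% and 13.5% of all genes. Of 21 other cyclins, CDKs and regulators, 18 were tested and 0 called (2 higher and 1 lower at an unadjusted p under 0.05 in edgeR, against 11.6% and 10.2% of all genes), with a median of -0.035. *Ccnh*, encoding cyclin H of the CDK-activating kinase, had 1035, 946 and 988 in WT and 828, 801 and 845 in *Fmo5*-/- mice, lower without overlap (-0.26, edgeR adjusted p = 0.102). *Cdkn3*, a phosphatase of CDKs, had 7.41, 10.04 and 10.2 in WT and 28.9, 21.1 and 13.7 in *Fmo5*-/- mice (1.20, edgeR adjusted p = 0.114), and it too was under the limit in all WT libraries. *Cdc25b*, which activates CDK1, had 63.5, 60.3 and 53.2 in WT and 112, 92.7 and 62.8 in *Fmo5*-/- mice, with overlap (0.60, edgeR adjusted p = 0.198). Of the 18 tested, 2 were higher and 2 lower without overlap, against 13.9% and 13.5% of all genes. Named after their values were seen, 2 CDK inhibitors of this list also did not overlap, while *Cdkn2b* and *Cdkn2d* did. *Cdkn1c*, encoding p57, had 62.5, 64.7 and 52.1 in WT and 47.5, 48.6 and 41.2 in *Fmo5*-/- mice (-0.38, edgeR adjusted p = 0.333). *Cdkn2a*, encoding p16, was below the limit for testing, with 3.18, 3.35 and 3.07 in WT and 14.0, 42.2 and 8.84 in *Fmo5*-/- mice.

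Summed markers of macrophages and of T and NK cells were higher in *Fmo5*-/- mice, without overlap. The 8 Kupffer cell and macrophage markers summed to 9045 to 10777 normalized counts in WT mice and to 25980, 24690 and 14133 in *Fmo5*-/- mice 1, 2 and 3. All 8 had a log2 fold change above 0 (median 1.05), against 50.8% of all genes, and 7 lay above all WT mice without overlap, against 13.9%. edgeR called 1 (*Clec4f*, 0.70, adjusted p = 0.0275), against 0.675% of all genes called higher. The 8 T and NK cell markers summed to 209 to 294 in WT mice and to 531, 1270 and 360.3 in *Fmo5*-/- mice, with a log2 fold change above 0 in all 8 (median 1.46) and 0 called, 6 of them at an unadjusted p under 0.05 in edgeR, against 11.6% of all genes in that direction. Of these 8, *Cd8a*, *Ncr1* and *Nkg7* were under the limit on low counts in at least 1 WT library. In both lists mouse 3 was the lowest *Fmo5*-/- mouse. Sums were 301 to 406 in WT and 415 to 517 in *Fmo5*-/- mice for 6 B and plasma cell markers, and 38.9 to 115 and 117 to 251 for 6 neutrophil markers, of which 2 were tested and *Ly6g*, *Mpo* and *Camp* were at 0 in some libraries. Of the 8 hepatocyte markers, whose sums overlapped, 1 had a log2 fold change above 0, against 50.8% of all genes, and 7 were below 0 (median -0.090). In this list edgeR called 0, against 1.37% of all genes, and 1 marker was lower without overlap, against 13.5%. Sums of markers of sinusoidal endothelial cells, stellate cells, cholangiocytes and erythroid cells overlapped between genotypes, with no marker at 0. The part of these cells in the differences of the cell cycle genes was not tested, and in whole tissue more cells of a type and more RNA per cell cannot be told apart.

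**Figure D4:**
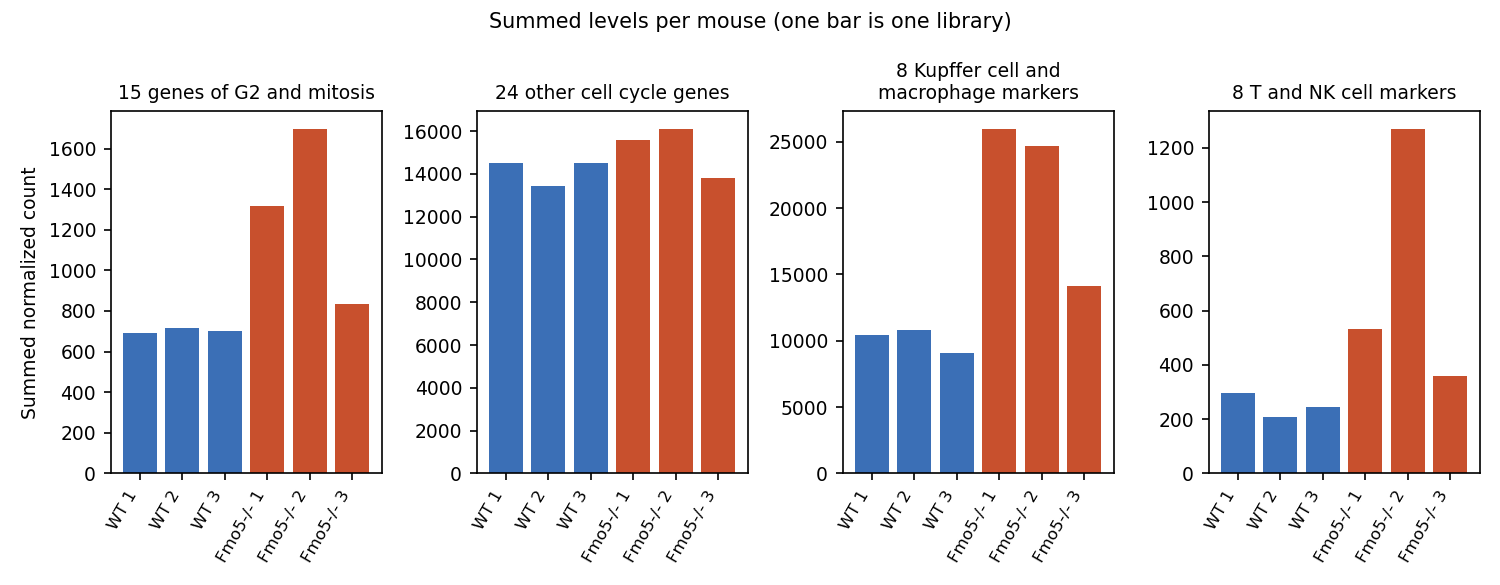
Summed normalized count (vertical axis, 1 scale per panel, from 0) in each mouse for the 15 genes of G2 and mitosis, the other 24 members, 8 Kupffer cell and macrophage markers and 8 T and NK cell markers. Blue bars are WT and red bars *Fmo5*-/- mice, and *Fmo5*-/- mouse 3 is the lowest *Fmo5*-/- mouse in each panel.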

How the data were processed

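RNA was measured in liver of 3 WT and 3 *Fmo5*-/- mice (single reads of 75 bases). The authors clipped adapters, mapped reads to mm10 with STAR 2.6.0c and counted them per gene with STAR. The annotation release is not given in the sources used here. They deposited raw counts of both strands and of each strand alone per library. The authors also deposited 1 DESeq2 (1.22.2) table whose signal columns hold counts divided by a size factor per library, which was checked against the counts. Its log2 fold changes, Wald score and p-value columns are the authors' own comparison and were not used.

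Counts of both strands were compared in R 4.3.3 with the robust quasi-likelihood test of edgeR 4.0.16 (TMM, filterByExpr with a minimum count of 10, 2-sided, Benjamini-Hochberg over 16734 genes, called at an adjusted p under 0.05). Intervals are 95% confidence intervals. An exact permutation test of 3 against 3 cannot go below p = 0.1 and was not run. With 1 library per mouse, p-values measure the spread between mice. Positions and exon lengths are from GENCODE vM21 on GRCm38, the build of mm10. RPKM was computed here from union exon length. Antisense overlaps matter because the libraries do not mark strand.

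Members, lists and tests were chosen with earlier results of these data known. The genes named are all members, *Fmo5*, every called gene of the other cell cycle lists with up to 3 of smallest p per list, and markers where their sum is given. Other genes are named to account for a count, after their values were seen. Alternatives were DESeq2 1.42.0, RLE factors, TMM without the 20 most abundant genes, no filter, a mean count of 500 or more (the study's own limit), counts of 1 strand, and each library left out. The limit of 500 was set here before the edgeR fit, whereas the study used it with DESeq2. The steps were tested on simulated data.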

Additional observations from a re-analysis of the deposited data

How the results depend on the processing

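Over 12 alternatives, 427 log2 fold changes of members were recomputed. Of these, 383 kept their direction and their side of the threshold, 28 passed it (all higher in *Fmo5*-/- mice) and 16 changed sign, none of them called. Members called (0 with edgeR) were 7 with the DESeq2 Wald test, where 4.75% of all genes were called higher. With no filter on low counts they were 12, where 3.2% of all genes were called higher. The 12 were the 7 of DESeq2 with *Cdk6*, *Mcm3*, *Ccnb1*, *Foxm1* and *Plk1*. Leaving out 1 library gave 0 to 9 members, 9 only without *Fmo5*-/- mouse 3. RLE factors, TMM without the 20 most abundant genes, 1 strand (36 members tested) and a mean count of 500 or more (11 tested) gave 0. In these settings, in the same order, 1.46%, 1.52%, 1.50% and 0.678% of all genes were called. Over all genes, the 229 calls became 1395 with DESeq2, 1989 with no filter, 53 at a mean of 500 or more and 31 to 763 without 1 library (31 without *Fmo5*-/- mouse 1, 62, 82 and 148 without WT mice 1, 2 and 3, 106 and 763 without *Fmo5*-/- mice 2 and 3). With 7819 genes, fewer were tested at the limit of 500. The causes of the other differences were not tested.

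Signs changed with 1 strand for *Ccna2* (-0.16), *Cdk4* (-0.092) and *Ccne2* (0.0061), which share exons with opposite-strand genes, and for *Tyms* (0.012). With TMM without the 20 most abundant genes *Tyms* was 0.0036, and at a mean of 500 or more *Ccnd3* was 0.0047. Without 1 library, log2 fold changes spanned 0 for *Ccnd1* (-0.25 to 0.11), *Cdk2* (-0.032 to 0.10), *Cdkn2c* (-0.21 to 0.031), *Mcm7* (-0.037 to 0.075), *Tyms* (-0.053 to 0.078), *Tk1* (-0.24 to 0.0012) and *Birc5* (-0.15 to 0.47). Without *Fmo5*-/- mouse 3 *Cdkn2c* was 0.020, and *Tyms* was 0.036 and 0.0016 without WT mice 1 and 3. No paired analysis was possible because the labels carry no replicate numbers. Genes with around 10 counts per library, such as *Bub1* and *Ccnb1*, are the least precise.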

Other observations

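Lists of genes upstream of the cell cycle were also examined. Of 20 genes in the list of p53 and its targets, all tested, edgeR called 0 higher and 1 lower, with 3 higher and 3 lower at an unadjusted p under 0.05 (11.6% and 10.2% of all genes) and a median log2 fold change of 0.082. The 1 called was *Perp*, a desmosomal membrane protein and p53 target, which had 5581, 5289 and 5079 normalized counts in WT and 3996, 3686 and 4115 in *Fmo5*-/- mice (-0.44 ± 0.081 SE, edgeR adjusted p = 0.0459). *Ei24*, an endoplasmic reticulum protein, had 10390.1, 9722 and 8233 in WT and 7066, 6520 and 7113 in *Fmo5*-/- mice (-0.45, edgeR adjusted p = 0.0633). *Gadd45a*, a growth arrest gene of the DNA damage response, had 492, 344 and 422 in WT and 184, 239 and 334 in *Fmo5*-/- mice (-0.73, edgeR adjusted p = 0.111). The genotypes did not overlap in these 3 genes, and all their *Fmo5*-/- values were lower, while 13.5% of all genes were lower without overlap and 0.693% were called lower. The log2 fold change was above 0 in 15 of the 20, against 50.8% of all genes, and the 3 higher at an unadjusted p under 0.05, named after their values were seen, were *Bax* (0.28), *Phlda3* (0.78) and *Pmaip1* (1.07), with edgeR adjusted p of 0.133, 0.173 and 0.195. *Bax*, which promotes apoptosis, had 884, 858 and 1017 in WT and 1191, 1133 and 1038 in *Fmo5*-/- mice and did not overlap. The other two overlapped between the genotypes, and *Pmaip1* was under the limit on low counts in 1 WT library.

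Of 18 genes of the RB, E2F and DREAM complexes, 0 were called by edgeR, 1 was higher and 1 lower at an unadjusted p under 0.05, against 11.6% and 10.2% of all genes, and the median was 0.030. *Rbl1*, encoding the pocket protein p107, had 74.1, 90.4 and 83.8 in WT and 128, 194 and 95.2 in *Fmo5*-/- mice (0.75, edgeR adjusted p = 0.146), and *Tfdp1*, encoding the partner of E2F proteins, had 800, 839 and 793 in WT and 726, 631 and 657 in *Fmo5*-/- mice (-0.27, edgeR adjusted p = 0.122). Neither overlapped between genotypes, and they differed in opposite directions. *E2f6*, a repressor of the E2F family, had 765, 912 and 739 in WT and 732, 678 and 705 in *Fmo5*-/- mice, lower without overlap (-0.19, edgeR adjusted p = 0.311). In the list, 1 gene was higher and 2 were lower without overlap, against 13.9% and 13.5% of all genes. Of 19 growth factor receptors, ligands and immediate early genes, 18 were tested, 0 were called by edgeR, 1 (*Igf1r*) was higher at an unadjusted p under 0.05, against 11.6% of all genes, and the median was -0.0045. *Jun* and *Met* had the next smallest p (-0.24 and -0.20, edgeR adjusted p of 0.336 and 0.364).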
